A study of Mus musculus with 16 samples.

Results

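Collagen genes were taken as all symbols of the form Col, a type number, a and a chain number that stood in both deposited count tables, and those with at least 10 counts in at least 3 of 16 libraries were kept. Of 44 matching symbols, 36 were kept, out of 49139 genes with a symbol, of which 16901 reached the same count. Just inside the limit lay Col4a4, Col10a1, Col23a1 and Col27a1, each with 10 counts in 3 libraries. Outside it, Col4a3, Col11a1, Col19a1, Col22a1 and Col28a1 reached 10 counts in 1 library, and Col6a6, Col25a1 and Col26a1 in 0. The kept genes comprised 10 of 11 fibrillar collagens, 5 of 6 type IV chains, 5 of 6 type VI chains, 7 of 9 fibril-associated collagens (FACITs), both multiplexins, all 4 network and anchoring collagens and 3 of 4 transmembrane collagens.

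RNA was sequenced from sorted cells of tumours of 4T07, a mouse mammary carcinoma line, grown in the mammary fat pad of female mice of the cross C57BL/6J x Balb/cJ F1. Mixed tumours began from 250000 cells, with GFP-transduced and mCherry-transduced cells in equal parts, and the mice received PD1KO Jedi T cells, which recognise a GFP peptide, by tail vein on day 7 or day 15, with harvest 7 days later. GFP cells that survived and untargeted mCherry cells came from the same 3 tumours per injection day, and a further 4 libraries (C1 to C4) held mCherry cells of control tumours with neither GFP cells nor Jedi T cells. For the control tumours the labels give neither the number of cells injected nor the time of harvest. No GFP cells came from a tumour without Jedi T cells, so the reporter and the T cell attack cannot be told apart. Day 7 libraries belonged to sequencing run 1 and all others to run 2, so levels were not compared between days. Tumour numbers are those of the count columns (day 7 tumours 2 to 4, day 15 tumours 1 to 3). The sample titles number the day 7 tumours 1 to 3, so day 7 libraries were paired by the numbers their columns share. The labels do not say whether each tumour came from its own mouse, so p-values measure the spread between these tumours.

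Libraries held 9412040 to 14535791 counts in day 7 GFP cells, 12942893 to 19970822 in day 7 mCherry cells, 21183324 to 24880582 in day 15 GFP cells, 21832170 to 22248031 in day 15 mCherry cells and 24367417 to 32808354 in controls. Of the line's markers, the keratins Krt8 and Krt18 and the intermediate filament gene Vim were abundant in every group. Krt8 was lower in GFP than in mCherry cells on days 7 and 15 (log2 fold change −0.96 and −0.55), as was Krt18 (−1.72 and −0.98), and Cdh1, the E-cadherin gene, was higher (1.92 and 1.36), all called by the same test as the collagens. Epcam averaged 0.984 to 1.60 CPM (counts scaled to library size) and Krt5 and Krt14 at most 0.576 CPM. T cell markers summed to at most 2.98 CPM in any library. Markers of macrophages summed to 108 to 180 CPM in day 7 GFP libraries, against 660 to 937 CPM in day 7 mCherry libraries. In bulk RNA, fewer cells of a type and less RNA per cell cannot be told apart. Control C2 had the highest level of all 16 libraries for 14 of the 36 collagens, a ranking that crosses both sequencing runs. The share of all genes highest in C2 was not computed, so this is not shown to be particular to collagens. Endothelial markers also summed highest in C2, at 138 CPM.

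Collagens are triple-helical proteins of the extracellular matrix, built from chains that each have their own gene. Fibrillar collagens form the cables of connective tissue, FACITs decorate those cables, type IV forms the sheet of basement membranes, and type VI forms beaded filaments between the cells and the matrix. In tumours, fibrillar collagens are known mainly as products of fibroblasts, while epithelial and mesenchymal tumour cells make type IV chains and other collagens themselves.

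Type IV chain genes lie in head to head pairs. Col4a6 and Col4a5 lie on chromosome X on opposite strands with their starts 1308 bases apart, and Col4a1 and Col4a2 on chromosome 8, where their annotated ends overlap by 22 bases. The promoters of these 4 genes are shown because the first pair was higher in GFP cells on both days, and the second was called on neither. Each window runs from 250 bases before to 50 after the start of transcription (RefSeq, GRCm38.p6), at chrX:141475169-141475468 on the plus strand for Col4a5, chrX:141474027-141474326 on the minus strand for Col4a6, chr8:11312777-11313076 on the minus strand for Col4a1 and chr8:11312555-11312854 on the plus strand for Col4a2. Capitals mark CCAAT and GGGCGG on either strand, so that ATTGG and CCGCCC are their reverse complements.
Col4a5: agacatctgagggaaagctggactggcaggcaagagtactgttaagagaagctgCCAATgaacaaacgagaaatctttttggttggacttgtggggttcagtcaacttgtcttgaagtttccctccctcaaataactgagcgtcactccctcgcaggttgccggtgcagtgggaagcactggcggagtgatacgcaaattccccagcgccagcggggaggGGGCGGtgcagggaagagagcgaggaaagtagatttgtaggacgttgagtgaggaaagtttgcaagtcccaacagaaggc
Col4a6: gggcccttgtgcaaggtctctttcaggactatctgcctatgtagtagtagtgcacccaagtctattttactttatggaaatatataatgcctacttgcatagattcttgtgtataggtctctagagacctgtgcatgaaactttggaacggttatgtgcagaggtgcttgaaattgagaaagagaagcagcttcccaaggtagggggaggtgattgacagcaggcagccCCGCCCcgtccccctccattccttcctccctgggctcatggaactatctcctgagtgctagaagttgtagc
Col4a1: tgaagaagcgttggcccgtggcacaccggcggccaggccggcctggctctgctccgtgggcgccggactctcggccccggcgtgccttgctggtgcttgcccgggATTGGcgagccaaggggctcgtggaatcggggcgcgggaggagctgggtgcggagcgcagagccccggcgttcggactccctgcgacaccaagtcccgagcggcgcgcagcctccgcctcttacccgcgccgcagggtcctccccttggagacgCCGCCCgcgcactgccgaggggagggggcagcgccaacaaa
Col4a2: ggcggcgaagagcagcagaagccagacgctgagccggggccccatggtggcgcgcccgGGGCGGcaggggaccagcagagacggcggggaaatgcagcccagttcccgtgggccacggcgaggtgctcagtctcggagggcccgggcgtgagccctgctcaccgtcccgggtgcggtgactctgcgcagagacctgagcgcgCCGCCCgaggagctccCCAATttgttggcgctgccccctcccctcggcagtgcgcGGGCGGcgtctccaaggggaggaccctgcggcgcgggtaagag
The Col4a1 and Col4a2 windows share 78 bases (chr8:11312777-11312854), and those of Col4a6 and Col4a5 share 0. Col4a5, Col4a1 and Col4a2 hold CCAAT, which Col4a6 does not, and all 4 hold GGGCGG. Of the 36 collagens, 30 had a promoter in the table. On either strand, CCAAT stood in 36.7% of these 30 and in 37.4% of all 32851 promoters, and GGGCGG in 63.3% of the 30 and 35.7% of all. TATAAA stood in 16.7% of the 30 and 13.6% of all, and TTCNNNGAA in 3.33% of the 30 and 8.30% of all. The shares of the 30 count genes that passed the count limit. Those of all count promoters, with no limit on expression, so no enrichment in collagens is shown.

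In tumours injected on day 7, 28 collagens could be tested in GFP against mCherry cells, and 6 rose and 5 fell. In tumours injected on day 15, 31 could be tested, and 7 rose and 9 fell. Of all genes tested, 18.2% were called on day 7 (8.89% higher, 9.33% lower) and 19.5% on day 15 (8.94% higher, 10.6% lower). A call here means an adjusted p below 0.05 by edgeR's quasi-likelihood test over all genes, blocked by tumour. The median was −0.06 on the log2 scale over the tested collagens and −0.004 over all genes on day 7, and −0.35 and 0.006 on day 15. In all, 9 collagens were called on both days, in the same direction each time, which is 81.8% of those called on day 7 and 56.2% of those called on day 15. Over all genes, 1402 were called on both days in the same direction, which is 52.8% of those called on day 7 and 50.4% of those called on day 15. Col4a5, Col4a6, Col8a1 and Col18a1 rose on both days, and Col1a1, Col5a1, Col6a2, Col7a1 and Col24a1 fell on both. All 11 collagens called on day 7 had the same sign in all 3 tumours, as did 14 of the 16 called on day 15. Of all collagens tested, 16 of 28 on day 7 and 24 of 31 on day 15 did. The share over all genes was not computed, so this is not shown to be particular to collagens. The test used the same within-tumour differences, so the signs of called collagens are not separate support.

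**Figure D1:**
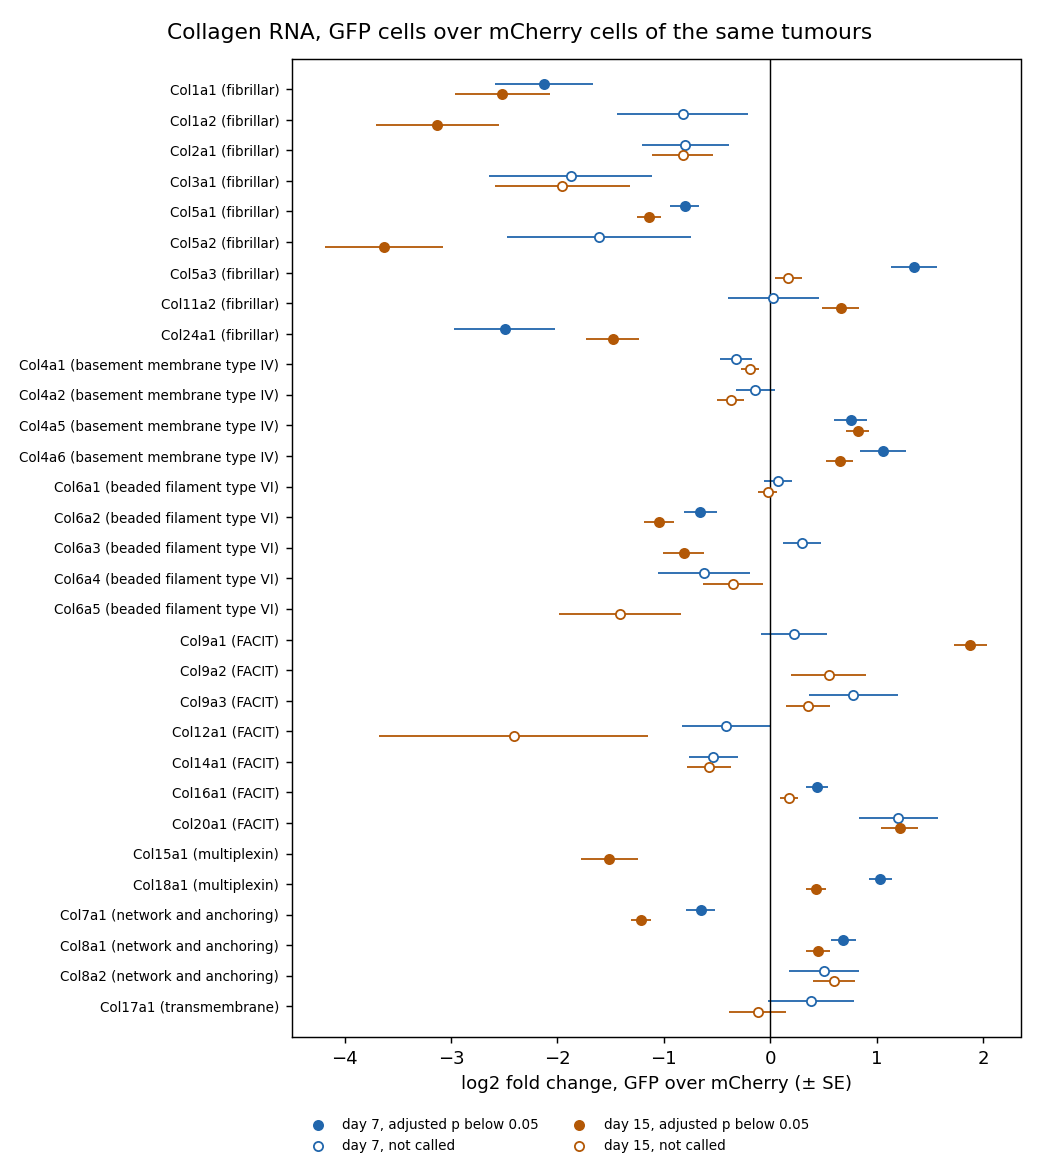
Log2 fold change of GFP over mCherry cells of the same tumours for each collagen tested on day 7 (blue) or day 15 (orange), grouped by class, with SE bars (3 tumours per day) and filled points at an adjusted p below 0.05. Called fibrillar genes lie mostly left of 0, and Col4a5, Col4a6, Col8a1 and Col18a1 right of 0 on both days.

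Per kilobase of exon, Col6a1, a chain of type VI, was the most abundant collagen in all 5 groups. It averaged 50.6 ± 8.29 CPM per kb in day 7 GFP cells and 48.3 ± 2.82 in day 7 mCherry cells, 93.4 ± 6.91 in day 15 GFP cells and 95.1 ± 7.84 in day 15 mCherry cells (SD, n = 3 each), and 112 ± 13.8 in controls (n = 4). The order below it differed between groups. Next in day 7 GFP cells were Col18a1 (30.6 CPM per kb), Col16a1 (17.9) and Col8a1 (16.7), and in day 7 mCherry cells Col5a1 (25.1), Col18a1 (15.1) and Col16a1 (13.4). Next in day 15 GFP cells were Col18a1 (47.1), Col4a5 (44.3) and Col16a1 (38.9), in day 15 mCherry cells Col5a1 (49.8), Col7a1 (46.9) and Col18a1 (34.5), and in controls Col5a1 (49.2), Col7a1 (45.2) and Col1a1 (44.8).

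In GFP cells more fibrillar collagens fell than rose. Of 9 tested on day 7, 1 rose and 3 fell (median on the log2 scale −0.82). Of 9 tested on day 15, 1 rose and 5 fell (median −1.48). Col5a1, the main chain of type V, which sets fibril width, had 135, 120 and 107 CPM in day 7 GFP cells of tumours 2, 3 and 4, against 189, 206 and 245 CPM in their mCherry cells. On day 15 it had 155, 246 and 185 CPM in GFP cells of tumours 1, 2 and 3, against 428, 450 and 390 CPM in mCherry cells, and the 4 controls lay at 352 to 466 CPM. No GFP library overlapped the mCherry libraries of its day. Col5a1 fell on day 7 (log2 fold change −0.80, SE 0.14, adjusted p = 0.00348) and on day 15 (−1.14, SE 0.11, adjusted p = 0.000167).

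Col1a1, which together with Col1a2 forms type I, the bulk collagen of connective tissue, had 11.2, 2.46 and 6.68 CPM in day 7 GFP cells, against 14.7, 25.8 and 46.5 CPM in day 7 mCherry cells. In day 15 tumours it had 21.6, 29.8 and 11.6 CPM in GFP cells, against 151, 52.9 and 178 CPM in mCherry cells. Every GFP library lay below every mCherry library of its day, though tumour 2 of day 15 showed the smallest gap of that day. The level fell on day 7 (−2.12, SE 0.46, adjusted p = 0.0111) and on day 15 (−2.52, SE 0.44, adjusted p = 0.00371). Without tumour 2 of its day the fall was larger, at −3.03 on day 7 and −3.35 on day 15, and without tumour 3 it was −1.59 and −1.81. Col24a1, a minor fibrillar collagen, had 0.925, 1.49 and 0.262 CPM in day 7 GFP cells, against 4.62, 4.06 and 5.97 CPM in mCherry cells. Its day 15 levels were 2.26, 3.46 and 4.06 CPM in GFP cells, against 10.8, 9.27 and 7.32 CPM in mCherry cells. It too fell on both days without overlap (−2.49, SE 0.47, adjusted p = 0.00597, and −1.48, SE 0.25, adjusted p = 0.00299). Its day 7 value was −3.25 without tumour 3 and −1.80 without tumour 4.

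Col1a2 and Col5a2, partner chains of Col1a1 and Col5a1, fell on day 15 with tumour 2 opposed. Col1a2 had 11.55, 1.84 and 5.31 CPM in day 15 GFP cells, against 86.9, 1.02 and 123 CPM in mCherry cells (−3.13, SE 0.58, adjusted p = 0.00475), and Col5a2 had 1.18, 0.437 and 0.870 CPM, against 16.4, 0.278 and 20.4 CPM (−3.63, SE 0.55, adjusted p = 0.00169). In tumour 2 both were slightly higher in GFP cells, on few counts (42 against 22 for Col1a2 and 10 against 6 for Col5a2). Col1a2 lost its call when the block was dropped (adjusted p = 0.0733), and both lost it with DESeq2 (adjusted p = 0.179 for Col1a2 and 0.0917 for Col5a2). With a tumour left out, Col1a2 ran from −3.67 (without tumour 2) to −1.98 (without tumour 3), and Col5a2 from −4.16 to −2.73 on leaving out the same tumours. On day 7, Col1a2 had 13.7, 2.31 and 3.80 CPM in GFP cells, against 4.92, 7.55 and 19.4 CPM in mCherry cells, and Col5a2 had 1.44, 0.149 and 0.589 CPM, against 0.492, 0.825 and 7.52 CPM. In both, tumour 2 went the other way and neither was called (adjusted p = 0.400 and 0.231). With a tumour left out, Col1a2 ran from −2.04 (without tumour 2) to 0.11 (without tumour 4), and Col5a2 from −3.35 to 0.08 on leaving out the same tumours.

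Col3a1, the type III collagen of reticular fibres, was called on neither day (log2 fold change −1.88, adjusted p = 0.121 on day 7, and −1.96, adjusted p = 0.0551 on day 15). It had 36.5, 8.92 and 11.6 CPM in day 15 GFP cells, against 127, 5.43 and 194 CPM in mCherry cells. Its value rested on single tumours, running from −3.48 (without tumour 2) to −0.71 (without tumour 4) on day 7 and from −2.88 (without tumour 2) to −0.78 (without tumour 3) on day 15. Col5a3 and Col11a2 were the fibrillar genes that rose. Col5a3, an alternative type V chain, had 52.9, 36.3 and 44.1 CPM in day 7 GFP cells, against 13.7, 23.0 and 16.8 CPM in mCherry cells (1.35, SE 0.22, adjusted p = 0.00250). On day 15 its groups overlapped, with 78.8, 114 and 109 CPM in GFP cells, against 65.6, 80.8 and 129 CPM in mCherry cells (0.17, adjusted p = 0.388). Col11a2, a chain of the cartilage type XI collagen, had 8.40, 9.67 and 7.00 CPM in day 15 GFP cells, against 4.77, 5.70 and 5.27 CPM in mCherry cells (0.66, SE 0.17, adjusted p = 0.0229), a call lost without tumour 1 and without tumour 2. Its day 7 levels were 0.634 to 2.26 CPM and did not differ by the test (0.03, adjusted p = 0.972). Col2a1, the cartilage type II chain, was not called on either day (−0.80 and −0.82), and Col27a1 was tested on neither.

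The chain ratio of type V shifted with these differences. Per kilobase, Col5a1 over Col5a3 was 1.95 to 2.65 in day 7 GFP cells and 7.19 to 11.7 in day 7 mCherry cells. It was 1.36 to 1.74 in day 15 GFP cells and 2.42 to 5.23 in day 15 mCherry cells, and 3.09 to 6.82 in controls. In the cells of either day the GFP libraries thus held less Col5a1 per Col5a3 than any mCherry library of that day. Col5a1 over Col5a2 ranged far wider, from 4.67 in C2 to 1827 in day 15 mCherry cells of tumour 2, where Col5a2 had only 6 counts.

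**Figure D2:**
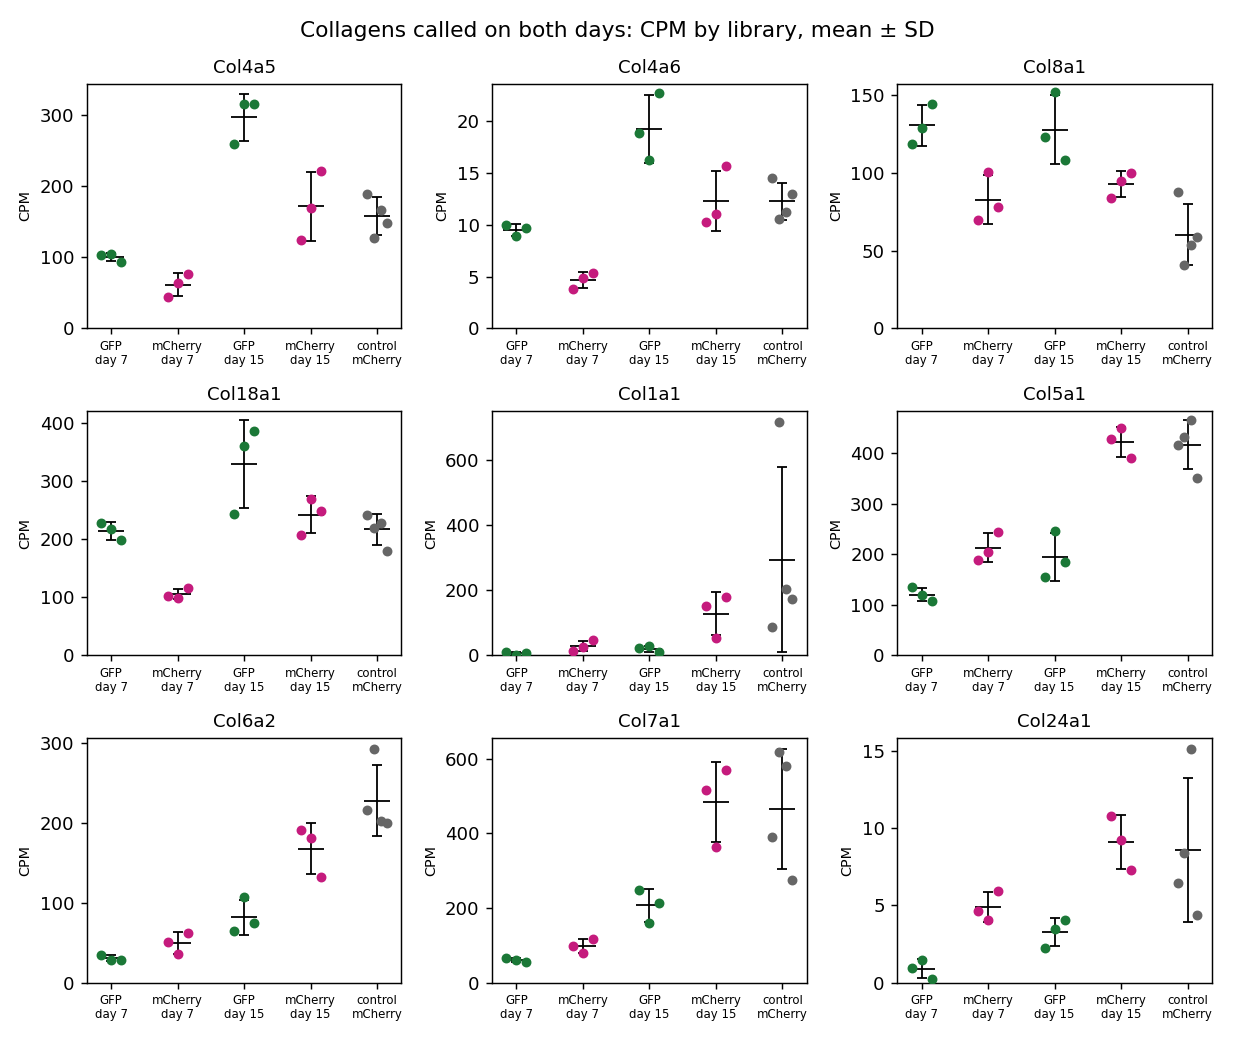
CPM of the 9 collagens called on both days, 1 point per library, with mean ± SD (n = 3 per GFP and mCherry group, n = 4 controls), each axis starting at 0 and GFP cells left of mCherry cells. For Col4a5, Col4a6 and Col8a1 all GFP points of a day lie above its mCherry points, and for Col1a1, Col5a1, Col6a2, Col7a1 and Col24a1 all lie below.

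Of the type IV chains, 4 were tested on each day and 2, Col4a5 and Col4a6, rose on both. These encode chains of basement membranes of epithelia and smooth muscle. Col4a5 had 103, 105 and 93.8 CPM in day 7 GFP cells, against 44.2, 63.6 and 76.6 CPM in mCherry cells (0.76, SE 0.16, adjusted p = 0.00958). On day 15 it had 259, 316 and 316 CPM in GFP cells, against 125, 169 and 222 CPM in mCherry cells (0.82, SE 0.11, adjusted p = 0.000699), and the controls lay at 127 to 189 CPM. GFP cells were above mCherry cells in every tumour, and no library of either group overlapped the other on its day. Col4a6 had 9.97, 8.88 and 9.69 CPM in day 7 GFP cells, against 3.79, 4.82 and 5.35 CPM in mCherry cells (1.06, SE 0.22, adjusted p = 0.00850). On day 15 it had 18.9, 16.2 and 22.7 CPM in GFP cells, against 10.3, 11.1 and 15.7 CPM in mCherry cells (0.65, SE 0.13, adjusted p = 0.00679). Col4a5 stood 11.48 to 23.2 times above Col4a6 per kilobase over the 16 libraries.

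Col4a1 and Col4a2, the chains found in nearly all basement membranes, were called on neither day. Col4a1 had 44.1, 55.2 and 48.5 CPM in day 7 GFP cells, against 44.5, 64.1 and 83.1 CPM in mCherry cells (−0.32, adjusted p = 0.163), and 71.7, 88.7 and 98.5 CPM in day 15 GFP cells, against 91.0, 95.1 and 107 CPM in mCherry cells (−0.19, adjusted p = 0.158). Col4a2 had 34.7, 33.4 and 35.0 CPM in day 7 GFP cells, against 26.3, 38.9 and 54.0 CPM in mCherry cells (−0.14, adjusted p = 0.640), and 49.1, 73.9 and 71.4 CPM in day 15 GFP cells, against 84.3, 75.9 and 87.9 CPM in mCherry cells (−0.37, adjusted p = 0.0668). These differences did not pass the test. The per kilobase ratio of Col4a1 to Col4a2 stayed within 0.957 to 1.498 in all 16 libraries. Per kilobase, Col4a5 over Col4a1 was 2.11 to 2.59 in day 7 GFP cells and 1.03 to 1.11 in day 7 mCherry cells, and 3.57 to 4.01 in day 15 GFP cells and 1.52 to 2.31 in day 15 mCherry cells. In the controls this ratio spread from 0.528 in C2 to 4.09 in C1, past both day 15 groups. Col4a4 was too low to test on either day.

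Type VI chains did not move as a unit. Col6a2, which assembles with Col6a1 and Col6a3 in 1 monomer, had 34.8, 28.3 and 28.4 CPM in day 7 GFP cells, against 51.2, 35.7 and 62.0 CPM in mCherry cells (−0.66, SE 0.16, adjusted p = 0.0167). Its day 15 levels were 64.4, 106 and 74.9 CPM in GFP cells, against 190, 181 and 131 CPM in mCherry cells (−1.04, SE 0.14, adjusted p = 0.000817), and the controls lay at 200 to 292 CPM. The GFP libraries lay below all mCherry libraries on both days. Col6a3 had 131, 169 and 150 CPM in day 15 GFP cells, against 352, 319 and 158 CPM in mCherry cells (−0.81, SE 0.19, adjusted p = 0.0155). Its groups overlapped through tumour 3, and the call ended with DESeq2 (adjusted p = 0.141). On day 7 it was not called (0.30, adjusted p = 0.286). Col6a1 had 252, 231 and 181 CPM in day 7 GFP cells, against 198, 214 and 222 CPM in mCherry cells, and 379, 440 and 409 CPM in day 15 GFP cells, against 424, 446 and 379 CPM in mCherry cells. Neither day was called (0.07, SE 0.13, adjusted p = 0.750, and −0.02, SE 0.09, adjusted p = 0.873). Per kilobase, Col6a1 over Col6a2 was 12.2 to 15.6 in day 7 GFP cells and 6.83 to 11.4 in day 7 mCherry cells, 7.85 to 11.2 in day 15 GFP cells and 4.24 to 5.48 in day 15 mCherry cells, and 3.78 to 4.36 in controls. The alternative chains Col6a4 and Col6a5 stayed at or under 2.36 CPM and were not called.

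Among the FACITs, 6 were tested on day 7 and 1 rose, and 7 were tested on day 15 and 2 rose. Col16a1, the most abundant FACIT here, had 118, 121 and 124 CPM in day 7 GFP cells, against 81.5, 92.1 and 97.3 CPM in mCherry cells (0.44, SE 0.10, adjusted p = 0.0132), a call that ended without tumour 2 or without tumour 3. Its day 15 levels were 224, 256 and 307 CPM in GFP cells, against 218, 225 and 250 CPM in mCherry cells, and it was not called (0.17, adjusted p = 0.174). Col9a1, a chain of the cartilage type IX collagen, had 18.1, 23.7 and 12.7 CPM in day 15 GFP cells, against 5.66, 5.19 and 3.73 CPM in mCherry cells. Its groups did not overlap (1.88, SE 0.16, adjusted p = 7.9e-05), and the controls spread over 4.38 to 13.2 CPM. On day 7 it had 11.4, 10.7 and 15.98 CPM in GFP cells, against 20.7, 8.31 and 7.21 CPM in mCherry cells (0.22, adjusted p = 0.672). Its partner chains Col9a2 and Col9a3 were not called.

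Col20a1, a FACIT of less known role, had 13.2, 12.2 and 11.9 CPM in day 15 GFP cells, against 4.33, 6.26 and 5.55 CPM in mCherry cells and 5.41 to 6.68 CPM in controls (1.22, SE 0.17, adjusted p = 0.00118). On day 7 it had 3.70, 2.39 and 2.03 CPM in GFP cells, against 1.03, 1.08 and 1.40 CPM in mCherry cells, and missed the threshold (1.21, SE 0.37, adjusted p = 0.0506). It was called with DESeq2 size factors in edgeR, with either other filter, without the block, in the joint fit and without tumour 4. GFP cells stood above all mCherry libraries on both days. Col12a1, a FACIT of type I fibrils, had 2.11, 8.84 and 0.787 CPM in day 15 GFP cells, against 28.7, 0.788 and 42.8 CPM in mCherry cells, with tumour 2 opposed to the others (−2.41, SE 1.26, adjusted p = 0.214). With a tumour left out it ran from −4.64 (without tumour 2) to −0.58 (without tumour 3). Col14a1 was not called (−0.53 on day 7, −0.58 on day 15).

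Col18a1, the multiplexin of basement membranes from which endostatin is cut, rose on both days. It had 228, 217 and 198 CPM in day 7 GFP cells, against 103, 99.9 and 115 CPM in mCherry cells (1.03, SE 0.11, adjusted p = 0.000242), a fold of 2.05 in GFP over mCherry cells. In day 15 tumours it had 244, 360 and 387 CPM in GFP cells, against 207, 270 and 250 CPM in mCherry cells (0.43, SE 0.09, adjusted p = 0.0102), with overlap of the groups through tumour 1, and it was no longer called when the block was dropped (adjusted p = 0.101) or tumour 3 left out. Col15a1, the multiplexin of the zone under basement membranes, had 1.57, 1.09 and 1.62 CPM in day 15 GFP cells, against 5.35, 2.09 and 5.36 CPM in mCherry cells (−1.51, SE 0.27, adjusted p = 0.00407). It was too low to test on day 7.

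Col7a1, the anchoring fibril collagen of skin, fell on both days. It had 66.6, 61.9 and 55.7 CPM in day 7 GFP cells, against 98.6, 80.3 and 117 CPM in mCherry cells (−0.65, SE 0.13, adjusted p = 0.00873). On day 15 it had 248, 160 and 214 CPM in GFP cells, against 517, 363 and 570 CPM in mCherry cells (−1.22, SE 0.09, adjusted p = 4.66e-05), the smallest adjusted p of any collagen on that day. Col8a1, a short-chain network collagen of vessel walls and cornea, rose on both. It had 118, 129 and 144 CPM in day 7 GFP cells, against 69.5, 100 and 78.2 CPM in mCherry cells (0.69, SE 0.12, adjusted p = 0.00401), and 123, 152 and 108 CPM in day 15 GFP cells, against 83.9, 94.8 and 99.8 CPM in mCherry cells (0.45, SE 0.11, adjusted p = 0.0175). The day 15 call of Col8a1 ended without tumour 2. Col8a2 was not called (0.50 and 0.60), and Col10a1 was too low to test. Of the transmembrane collagens, Col17a1, a hemidesmosome component, had 1.95, 1.94 and 1.64 CPM in day 7 GFP cells, against 2.21, 1.84 and 0.543 CPM in mCherry cells (0.38, adjusted p = 0.562). On day 15 it had 2.51, 1.44 and 2.45 CPM in GFP cells, against 2.45, 1.99 and 2.38 CPM in mCherry cells (−0.12, adjusted p = 0.790), so that the groups overlapped on both days. Col13a1 stayed at or under 0.196 CPM in both GFP groups and 0.758 CPM in both mCherry groups, and it and Col23a1 were too low to test.

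**Figure D3:**
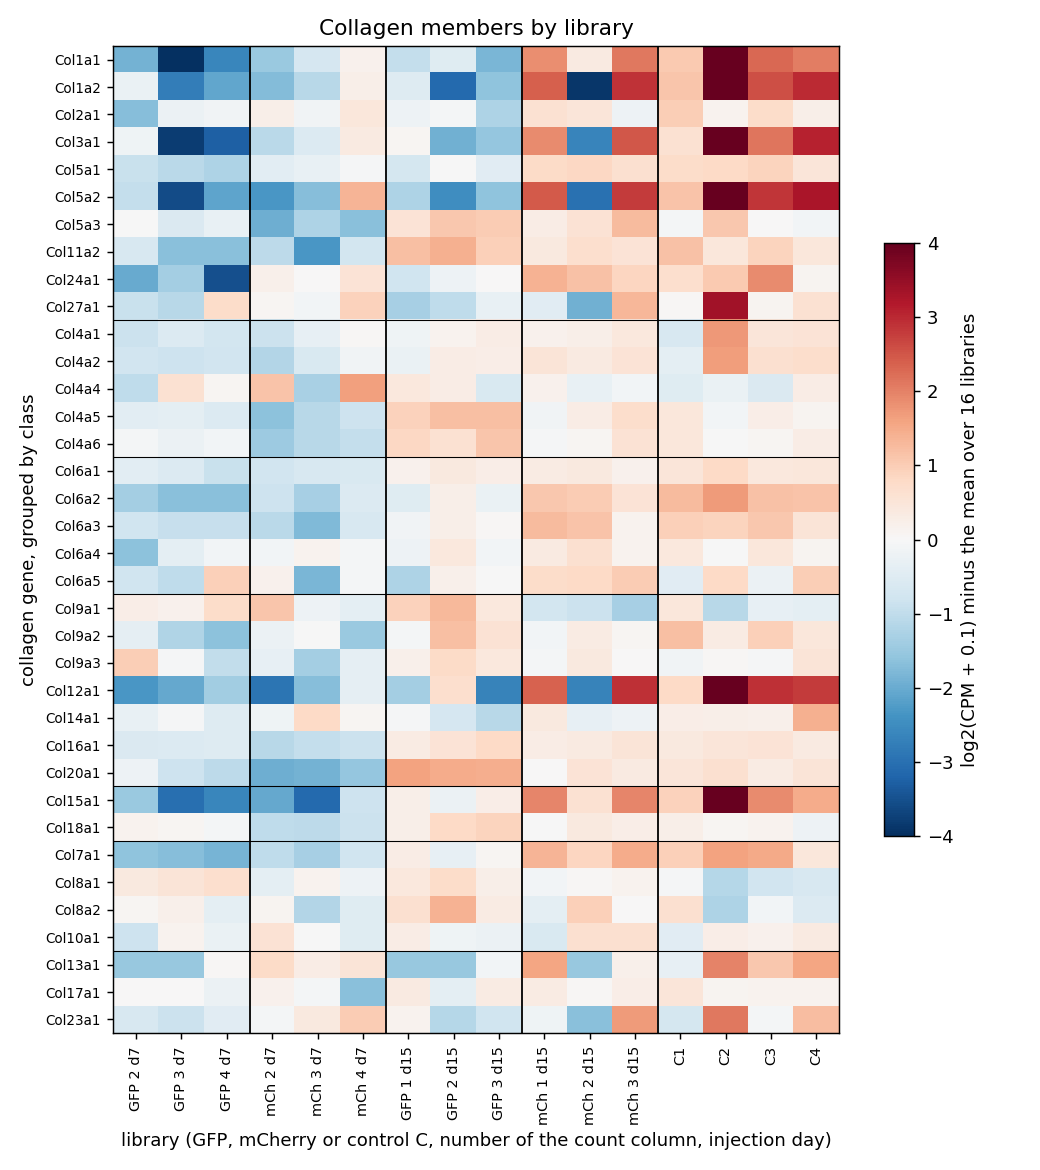
Log2(CPM + 0.1) of the 36 collagens minus each gene's mean over the 16 libraries (colours saturate at −4 and 4). Columns run day 7 GFP, day 7 mCherry, day 15 GFP, day 15 mCherry and controls. Control C2 is the reddest column for Col1a1, Col1a2, Col3a1, Col5a2, Col12a1 and Col15a1, in which mCherry cells of day 15 tumour 2 stand below those of tumours 1 and 3.

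The test of the difference between days, the GFP effect on day 15 minus that on day 7, called 0 of 33 collagens (0.211% of all genes were called). By edgeR, 5 lay at an unadjusted p under 0.05, and DESeq2 called 2. The smallest adjusted p belonged to Col5a3 (−1.18, SE 0.28, adjusted p = 0.125), Col9a1 (1.67, SE 0.40, adjusted p = 0.128) and Col18a1 (−0.61, SE 0.15, adjusted p = 0.158). A collagen called on 1 day alone is therefore not shown to differ between days.

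Col1a1, Col1a2, Col3a1, Col5a2, Col12a1 and Col15a1, were grouped after their values were seen. Among the 29 collagens that averaged at least 1 CPM, they had the widest spread over the 4 controls (coefficient of variation 93.7% to 112%, against 66.6% for Col4a1, the next). Below that level Col27a1 (141%) and Col23a1 (96.0%) spread as widely. Their summed level was 58.3, 8.66 and 16.7 CPM in day 7 GFP cells, against 37.4, 59.3 and 123 CPM in day 7 mCherry cells. It was 74.5, 50.96 and 31.8 CPM in day 15 GFP cells, against 416, 62.5 and 563 CPM in day 15 mCherry cells, and 194, 2192, 525 and 670 CPM in C1 to C4. These 6 made up 0.683% to 38.8% of the CPM of all 36 collagens, the top share being that of C2. The other 30 collagens summed to 1181 to 1318 CPM in day 7 GFP cells and 1040 to 1302 CPM in day 7 mCherry cells, which overlapped. They summed to 2109 to 2575 CPM in day 15 GFP cells, 2832 to 2844 CPM in day 15 mCherry cells and 2435 to 3458 CPM in controls.

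Markers of other cell types differed between groups too, not all in the same libraries. Of 15 fibroblast markers, Dcn, Pdgfra, Pi16 and Pdgfrb were present throughout, and their sum ran differently from that of the 6 collagens. Dcn and Pdgfra made up most of that sum on both days, and Pi16 did not follow it. On day 15 Pdgfrb did not follow it either and was not called (−0.25, adjusted p = 0.233). They summed to 750, 829 and 763 CPM in day 7 GFP cells, against 698, 784 and 849 CPM in day 7 mCherry cells, and to 1374, 1584 and 1511 CPM in day 15 GFP cells, against 915, 1069 and 1098 CPM in day 15 mCherry cells. C2, at 894 CPM, was the lowest control (1022 to 1295 CPM in the others). Dcn rose on day 15 (1.25, SE 0.09, adjusted p = 3.04e-05), and Pi16 fell on both days (−2.48, adjusted p = 0.000125, and −1.53, adjusted p = 0.000161). The other 11 summed to 6.55 to 23.7 CPM in day 7 GFP cells and 20.7 to 27.0 CPM in day 7 mCherry cells. They summed to 21.9, 37.4 and 16.9 CPM in day 15 GFP cells, 49.4, 12.5 and 49.4 CPM in day 15 mCherry cells, and 22.1, 204, 46.3 and 71.7 CPM in C1 to C4, so that tumour 2 was again the low mCherry library and C2 the high control. Among the 11, Postn had the highest mean level of those tested on day 15. It was higher in GFP cells in tumour 2 alone (within-tumour log2 differences −0.96, 3.90 and −1.61). The sum therefore does not show that all 11 ran alike. The split of this list was made after its values were seen. Of the 15, 0 rose and 2 fell of 10 tested on day 7, and 1 rose and 5 fell of 14 tested on day 15. The 12 endothelial markers summed to 14.2 to 16.2 CPM in day 7 GFP cells and 44.8 to 84.0 CPM in day 7 mCherry cells. On day 15 they summed to 23.6, 25.5 and 31.3 CPM in GFP cells, against 69.5, 37.1 and 51.1 CPM in mCherry cells, where tumour 2 was the lowest. Their sum was 138 CPM in C2 and 32.2 to 50.6 CPM in the other controls. Of these markers, 10 of 10 tested fell on day 7 and 5 of 12 on day 15. The 10 pericyte and smooth muscle markers summed to 7.09 to 15.31 CPM in day 7 GFP cells. In day 7 mCherry cells their sum was 15.99 to 29.55 CPM. On day 15 it was 19.7, 24.27 and 20.35 CPM in GFP cells, against 50.53, 43.31 and 31.43 CPM in mCherry cells. Tumour 2 was not the lowest there. C2 stood at 89.57 CPM, against 40.03 to 47.48 CPM in the other controls. Of those tested, 1 of 4 fell on day 7 and 2 of 7 on day 15. All 13 macrophage markers fell on day 7, and 6 of 10 tested fell on day 15. On day 15 they summed to 56.0, 73.2 and 59.2 CPM in GFP cells, against 107, 111 and 89.5 CPM in mCherry cells, where tumour 2 was the highest. The macrophage sum in C1 to C4 was 104, 204, 121 and 78.8 CPM, with C2 again the high control. The part of these cells in the collagen differences was not tested.

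**Figure D4:**
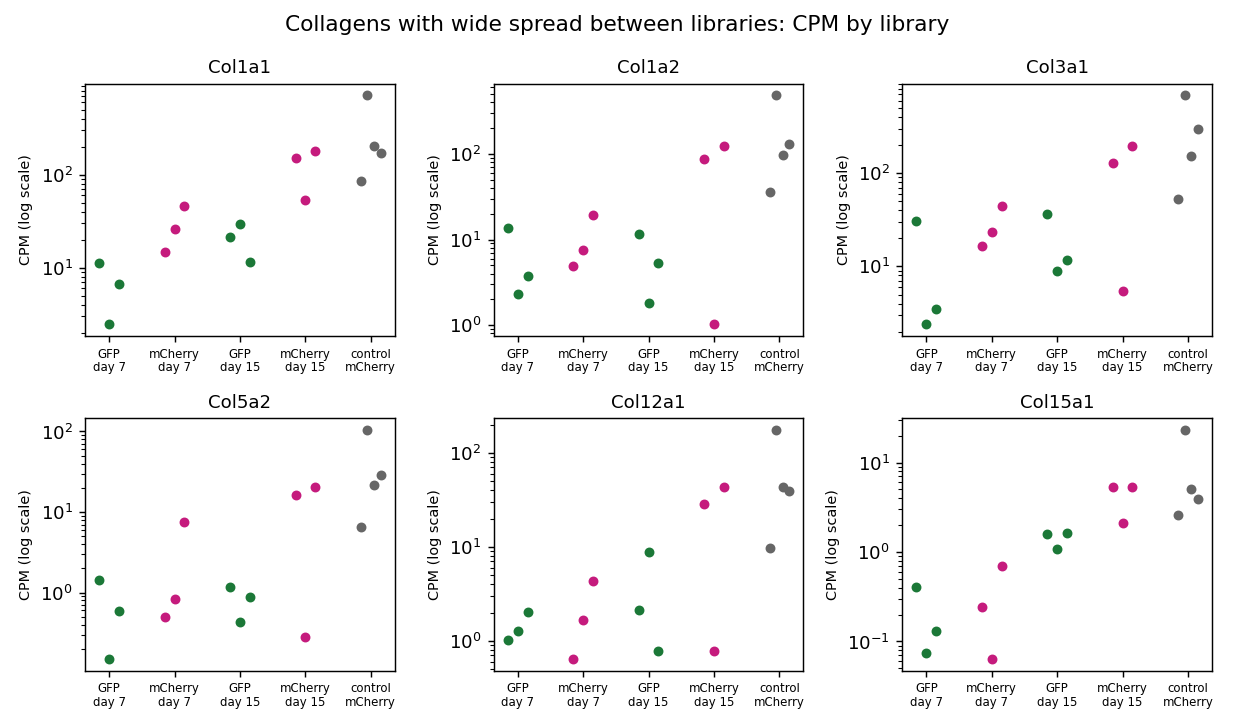
CPM on a log scale of 6 collagens chosen after their values were seen, 1 point per library, GFP cells left of mCherry cells for each day and controls at the right. In day 15 mCherry cells tumour 2 (middle point) lies far below the other tumours for Col1a2, Col3a1, Col5a2 and Col12a1, and C2 is the highest control in all 6.

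Day 15 mCherry cells were set against the controls to see whether untargeted cells beside a T cell attack differed from cells of tumours without one. None of 34 collagens was called by edgeR, and 0% of 14800 genes. At an unadjusted p under 0.05 lay 4 collagens, and DESeq2 called 0 collagens and 251 genes. Col8a1, for example, had 83.9, 94.8 and 99.8 CPM in day 15 mCherry cells, against 87.6, 40.8, 53.9 and 58.8 CPM in C1 to C4 (0.62, SE 0.21, adjusted p = 0.283). This does not show that the groups are alike, and whether their tumours were of like age is not given.

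Day 15 GFP cells were set against the same controls, with 31 collagens tested, of which 5 rose and 9 fell, where 13.1% of all genes were called (6.09% higher, 6.97% lower). Col4a5 (0.91, SE 0.14, adjusted p = 0.00999), Col4a6, Col8a1, Col18a1 and Col20a1 rose. Col5a1 (−1.10, SE 0.16, adjusted p = 0.00998), Col6a2 (−1.47, SE 0.20, adjusted p = 0.00940), Col6a3, Col7a1, Col1a1, Col1a2, Col3a1, Col5a2 and Col12a1 fell. This comparison shares its GFP libraries with the within-tumour comparison and its controls with the mCherry comparison. The number called was 5 without GFP tumour 1, 6 without tumour 2, 6 without tumour 3, 9 without C3 and 12 without C2.

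Genes that build, process or bind collagens were examined in 4 lists. Of 17 folding and modification genes tested, 1 rose and 4 fell on day 7 (median −0.20), and 1 rose and 9 fell on day 15 (median −0.34). Plod2, the lysyl hydroxylase of fibrillar telopeptides, had 136, 117 and 135 CPM in day 7 GFP cells, against 245, 199 and 254 CPM in mCherry cells (−0.83, SE 0.10, adjusted p = 0.000396), and fell on day 15 as well (−0.44, SE 0.12, adjusted p = 0.0308). P3h1, a prolyl 3-hydroxylase, fell on day 15 (−0.57, SE 0.10, adjusted p = 0.00339), as did P4ha3, a prolyl 4-hydroxylase chain at 0.295 to 0.612 CPM in GFP cells and 1.39 to 2.32 CPM in mCherry cells (−1.97, SE 0.43, adjusted p = 0.0103). On day 7 neither was called (−0.22 for P3h1 and −0.32 for P4ha3).

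Of export and procollagen processing genes, 1 of 8 tested rose and 2 fell on day 7 (median 0.06), and 0 of 9 rose and 2 fell on day 15 (median −0.10). Bmp1, which cuts the C-propeptide of fibrillar procollagens, fell on day 7 (−0.39, SE 0.11, adjusted p = 0.0399) and on day 15 (−0.81, SE 0.10, adjusted p = 0.000657). Adamts14, an N-propeptidase, had 84.1, 96.8 and 118 CPM in day 7 GFP cells, against 47.3, 53.0 and 49.4 CPM in mCherry cells (1.00, SE 0.11, adjusted p = 0.000317), and was not called on day 15 (0.09). Pcolce2, an enhancer of C-propeptide cutting, fell on day 7 (−0.54, SE 0.11, adjusted p = 0.00843) and was not called on day 15 (−0.71, adjusted p = 0.0594).

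Of 7 collagen receptors and uptake genes tested, 1 rose and 1 fell on each day (medians 0.02 and −0.06). Itga2, the alpha chain of a collagen-binding integrin, had 1.42, 1.40 and 2.45 CPM in day 15 GFP cells, against 10.4, 9.69 and 16.6 CPM in mCherry cells (−2.80, SE 0.18, adjusted p = 2.19e-05), and fell on day 7 too (−1.46, SE 0.42, adjusted p = 0.0394). Itga10, another integrin alpha chain, rose on day 15 (0.73, SE 0.12, adjusted p = 0.00230), and Ddr2, a fibrillar collagen receptor kinase, rose on day 7 (0.45, SE 0.10, adjusted p = 0.0105). Neither was called on the other day (0.02 for Itga10 on day 7 and 0.11 for Ddr2 on day 15).

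Of basement membrane partners of type IV, 1 of 10 tested rose and 4 fell on day 7 (median −0.10), and 0 of 12 rose and 4 fell on day 15 (median −0.37). Lama4, a laminin chain of vessel walls, had 17.9, 11.5 and 15.7 CPM in day 7 GFP cells, against 45.1, 32.4 and 47.6 CPM in mCherry cells (−1.46, SE 0.13, adjusted p = 9.34e-05), and fell on day 15 (−1.50, SE 0.19, adjusted p = 0.000599). Lamb3, a laminin chain of epithelial basement membranes, was at 0.0829 to 0.394 CPM in day 15 GFP cells and 1.68 to 1.95 CPM in mCherry cells (−3.03, SE 0.46, adjusted p = 0.00169). Nid2, a nidogen that links laminin to type IV collagen, had 0.103, 0.373 and 0 CPM in day 7 GFP cells, against 1.03, 2.03 and 3.26 CPM in mCherry cells (−3.71, SE 0.73, adjusted p = 0.00704). On day 15 its groups overlapped and it was not called (−1.14, adjusted p = 0.189).

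**Figure D5:**
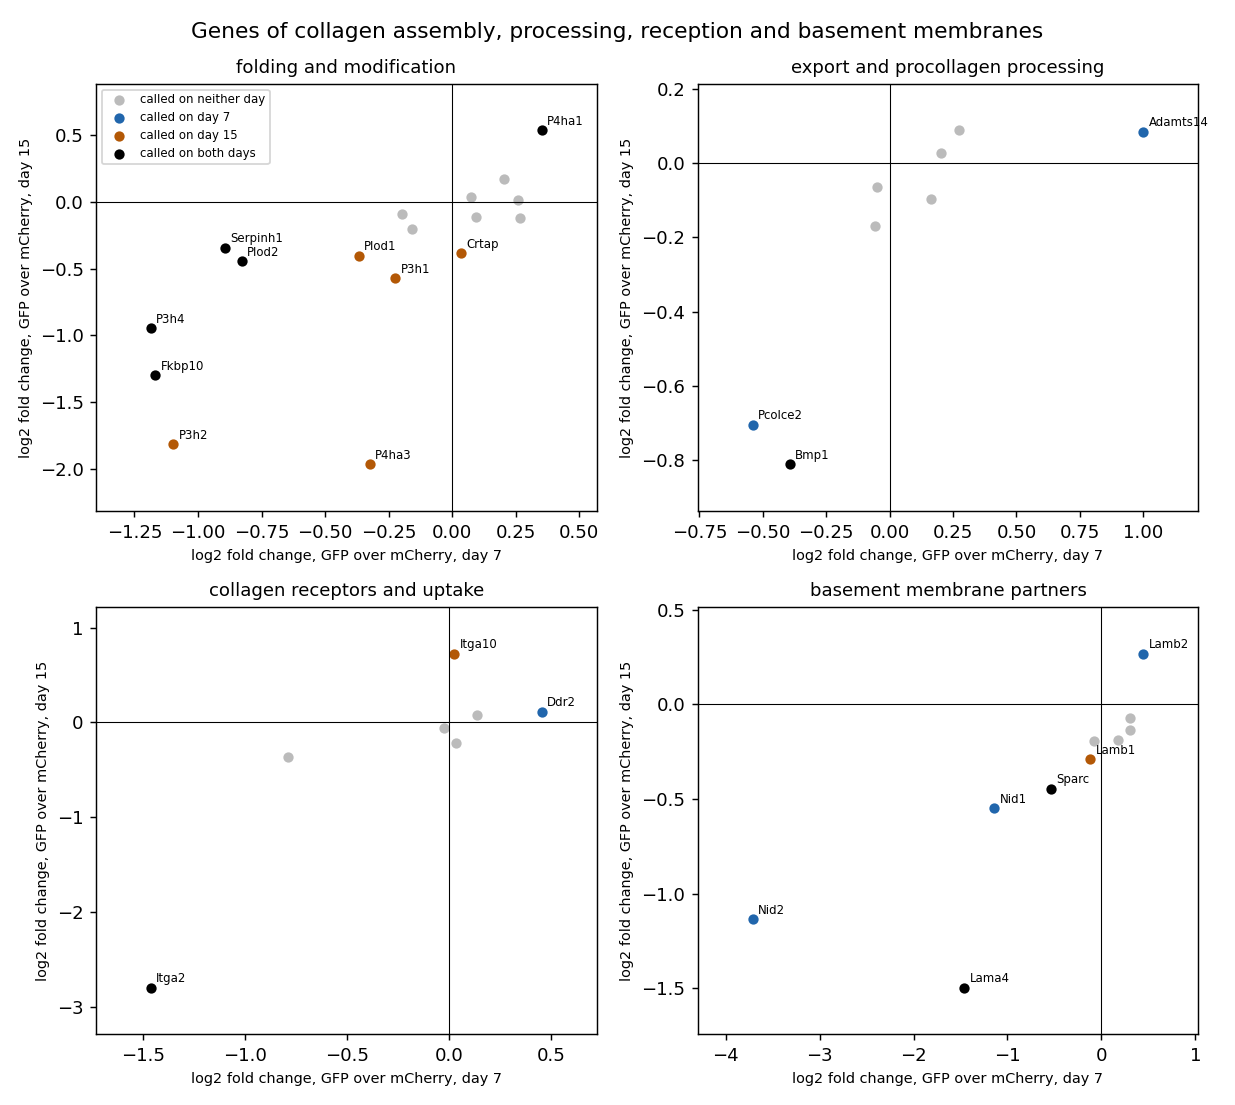
Log2 fold change of GFP over mCherry cells on day 7 (x axis) and day 15 (y axis) for the genes of 4 lists tested on both days, coloured by the day on which each was called. Itga2, Lama4 and Plod2 lie in the lower left with calls on both days.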

How the data were processed

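Counts are the raw counts per gene that the authors deposited, per the file headers. The genome was mm10 according to the submitters' processing notes. For the aligner, counter, annotation, strand setting and CD45 gate, the sources used here give nothing. Digestion used collagenase IV, hyaluronidase and DNAse, and the cells were then stained with CD45 and DAPI and sorted (per the labels). Each table has 49315 gene lines, of which 176 without a symbol were left out (at most 0.011% of counts).

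All else was computed here with edgeR 4.0.16 in R 4.3.3. Genes passed filterByExpr (minimum count 10, minimum total 15), were TMM-normalized and tested with quasi-likelihood F-tests, adjusted by Benjamini and Hochberg over all genes. The tumour block leaves 2 residual degrees of freedom. Both colours carry the same tumour number, in the labels on day 15 and in the count columns on day 7, whose titles are numbered otherwise. Same-numbered residual correlations were 0.110 to 0.162 on day 7 and 0.0896 to 0.232 on day 15, and those of other pairs −0.130 to 0.00919 and −0.183 to 0.0186. CPM use 1 joint normalization of 16 libraries, and levels per kb use GENCODE M21 exon length (GRCm38). Within-tumour signs used log2 CPM with a prior count of 2. Each SE was obtained by dividing the fold change (log2) by the root of its F statistic. DESeq2 1.42.0 was an alternative. Named in full are collagens called on either day, the 6 most abundant per kb and the 2 most abundant of each class, and the 3 genes of smallest p per companion list. Collagens, lists and tests were chosen with earlier results of these data known. A basement membrane gene is not reported here and is left out of its list's counts.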

Additional observations from a re-analysis of the deposited data

Results flagged for a closer look

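In 6 of 36 collagens, 1 control library lay far from the other 3, by the gap to its nearest neighbour over the range of the 4. For independent genes with normally distributed values, chance would give this in about 1 in 20. Of the 6 flags, 4 are high values of the same library, C2, so the genes may not be independent and no excess over chance is shown. In C2, Col6a1 stood at 580.9 CPM (453 to 473 in the other controls), Col5a3 at 112.6 CPM (50.3 to 54.8), Col15a1 at 23.17 CPM (2.59 to 5.11) and Col27a1 at 3.757 CPM (0.288 to 0.478). In C4, Col14a1 stood at 15.03 CPM (6.43 to 6.78), and in C1, Col17a1 at 2.783 CPM (2.09 to 2.15).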

How the results depend on the processing

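No called collagen changed direction under any alternative run (DESeq2, DESeq2 size factors, no filter, another filter, no replicate block, each tumour or library left out, joint fits). On day 7, 10 of 11 called collagens kept their call throughout, and Col16a1 did not. On day 15, 10 of 16 did, and Col1a2, Col5a2, Col6a3, Col8a1, Col11a2 and Col18a1 did not. Col11a2 lost its call without tumour 1, without tumour 2 and in the joint fit. Of the collagens not called, 4 on day 7 (Col1a2, Col3a1, Col5a2, Col20a1) and 6 on day 15 (Col2a1, Col3a1, Col4a2, Col8a2, Col12a1, Col14a1) gained a call under an alternative that kept all libraries, and 9 and 7 when leaving out tumours is counted too. Except for Col20a1 on day 7 and Col3a1 on day 15, the only such alternative was edgeR with no filter. With no filter, Col12a1 on day 15 went from an adjusted p of 0.214 to 4.8e-32 at nearly the same fold change (−2.41 and −2.385). Leaving out tumours gave 10 to 15 calls on day 7 and 15 to 17 on day 15. Without the replicate block, which drops the pairing within tumours, 12 collagens were called on day 7 and 14 on day 15, and 0 in the difference between days. That difference had 8 calls with no filter, 2 with DESeq2 and 0 to 3 with a tumour left out. Day 15 GFP cells against controls had 5 to 18 calls with a library left out. The cause was not tested. The within-tumour fits with a tumour left out have 1 residual degree of freedom and give small p-values. Only their counts and fold changes are therefore printed, and a call kept or gained there, or with no filter, adds little weight. Day 7 libraries are the shallowest, and 8 collagens could not be tested there, against 5 on day 15.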
